A study of Mus musculus with 280 samples.

Results

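The members described here are the 101 genes, of 11076 in the deposited expression table, whose symbols begin with Polr1, Polr2, Polr3, Gtf2, Gtf3, or with Taf or Med followed by a digit. These symbols name the subunits of the 3 nuclear RNA polymerases, the general transcription factors with the TBP-associated factors, and Mediator. They were chosen by symbol and not by level. By class there were 5 genes of polymerase I, 13 of polymerase II, 9 of polymerase III, 44 general factors and 30 Mediator subunits. Genes shared between polymerases were placed once, Polr1c and Polr1d with polymerase I and Polr2e, Polr2f, Polr2h, Polr2k and Polr2l with polymerase II. Taf15, an RNA-binding protein of the FET family, is a member through its symbol.

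Single mouse embryos were made by in vitro fertilization of oocytes from control-diet females with sperm from males kept on a low protein or a control diet, and were profiled whole by RNA sequencing at 6 stages of development before implantation. The mice were of the inbred strain FVB, and culture was in KSOM, a defined medium for embryos. There were 39 low protein and 41 control embryos of 2 cells, 40 and 42 of 4 cells, 2 and 2 of 8 cells, 35 and 38 morulae, 22 and 14 blastocysts, and 3 and 2 late blastocysts, 141 and 139 in all. They came from 20 sires, 10 per diet, and 20 oocyte donors on 8 plates, but the blastocysts had only 3 low protein and 2 control sires. No embryo carried a genetic change, per the labels, and the diet was given to the father alone.

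Each RNA polymerase serves a different set of genes: polymerase I makes the large ribosomal RNA precursor, polymerase II messenger RNA, and polymerase III transfer RNA, 5S ribosomal RNA and other small RNAs. Polymerase II starts at promoters with the general factors TFIIA, TFIIB, TFIID, TFIIE, TFIIF and TFIIH, and Mediator relays signals from bound activators to it. SL1 and TFIIIC do the matching work of promoter recognition for polymerases I and III. The mouse embryo begins with messenger RNA and protein stored in the oocyte, and its own genome is switched on in full at the 2-cell stage while the stored RNA is degraded.

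Values are TPM, which correct for gene length and are scaled to a fixed total per embryo, so depth is unknown and a level is a share of an embryo's RNA. In whole embryos a smaller number of expressing cells and less RNA per cell cannot be told apart. Embryos had between 3626 and 10204 genes at a TPM of 1 or more. Summed markers of the 2-cell stage (Zscan4d, Zscan4c and Zfp352) ran from 0 to 277 TPM in 4-cell embryos, against 257 to 4630.1 TPM in 2-cell embryos, and 1 of 82 embryos with 4 cells reached the lowest with 2. Summed over 4 blastocyst markers, blastocysts had a median of 11968 TPM, against 662 TPM and at most 2049 TPM in morulae. The 5 embryos labelled blastocysts on plate 6, all of 1 low protein sire, went against their label, with 457, 585 and 1506 TPM (lowest, median and highest), whereas the lowest of the other 31 blastocysts had 3067 TPM. Results on low protein blastocysts are therefore also given without plate 6 or without these 5 embryos, levels without them being chosen after the marker values were seen. None of 6 cumulus cell markers had a row. Plates differed within a stage: over the members, the median range of plate medians was 1.74 log2 units at the 2-cell stage and 1.30 log2 units at the morula stage. Of 100 members placed on the genome, 4 overlap exons of another gene on the same strand, Taf9 among them with Ak6, and 31 overlap exons on the other strand. Whether counting used strand is not given in the sources used here, so these values may hold reads of a neighbor.

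Most polymerase subunits were highest at the 4-cell stage, whereas a smaller set, with Polr2c, Med27 and Med30 at 3 of the 4 highest 2-cell medians, had fallen by the 4-cell stage. A further 27 of 101 members were not called at that step in each diet. By mean log2(TPM + 1), 57 of 101 members in low protein and 64 of 101 in control embryos were highest at the 4-cell stage among the 2-cell, 4-cell, morula and blastocyst stages, against 28.2% and 30.2% of all genes. The lowest mean lay at the blastocyst stage for 48 and 49 members. Without the 5 embryos of plate 6, low protein embryos still had 57 members highest at the 4-cell stage and 48 lowest at the blastocyst stage. The shares of all genes with their lowest mean at that stage, and those without these 5 embryos, were not computed.

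**Figure D1:**
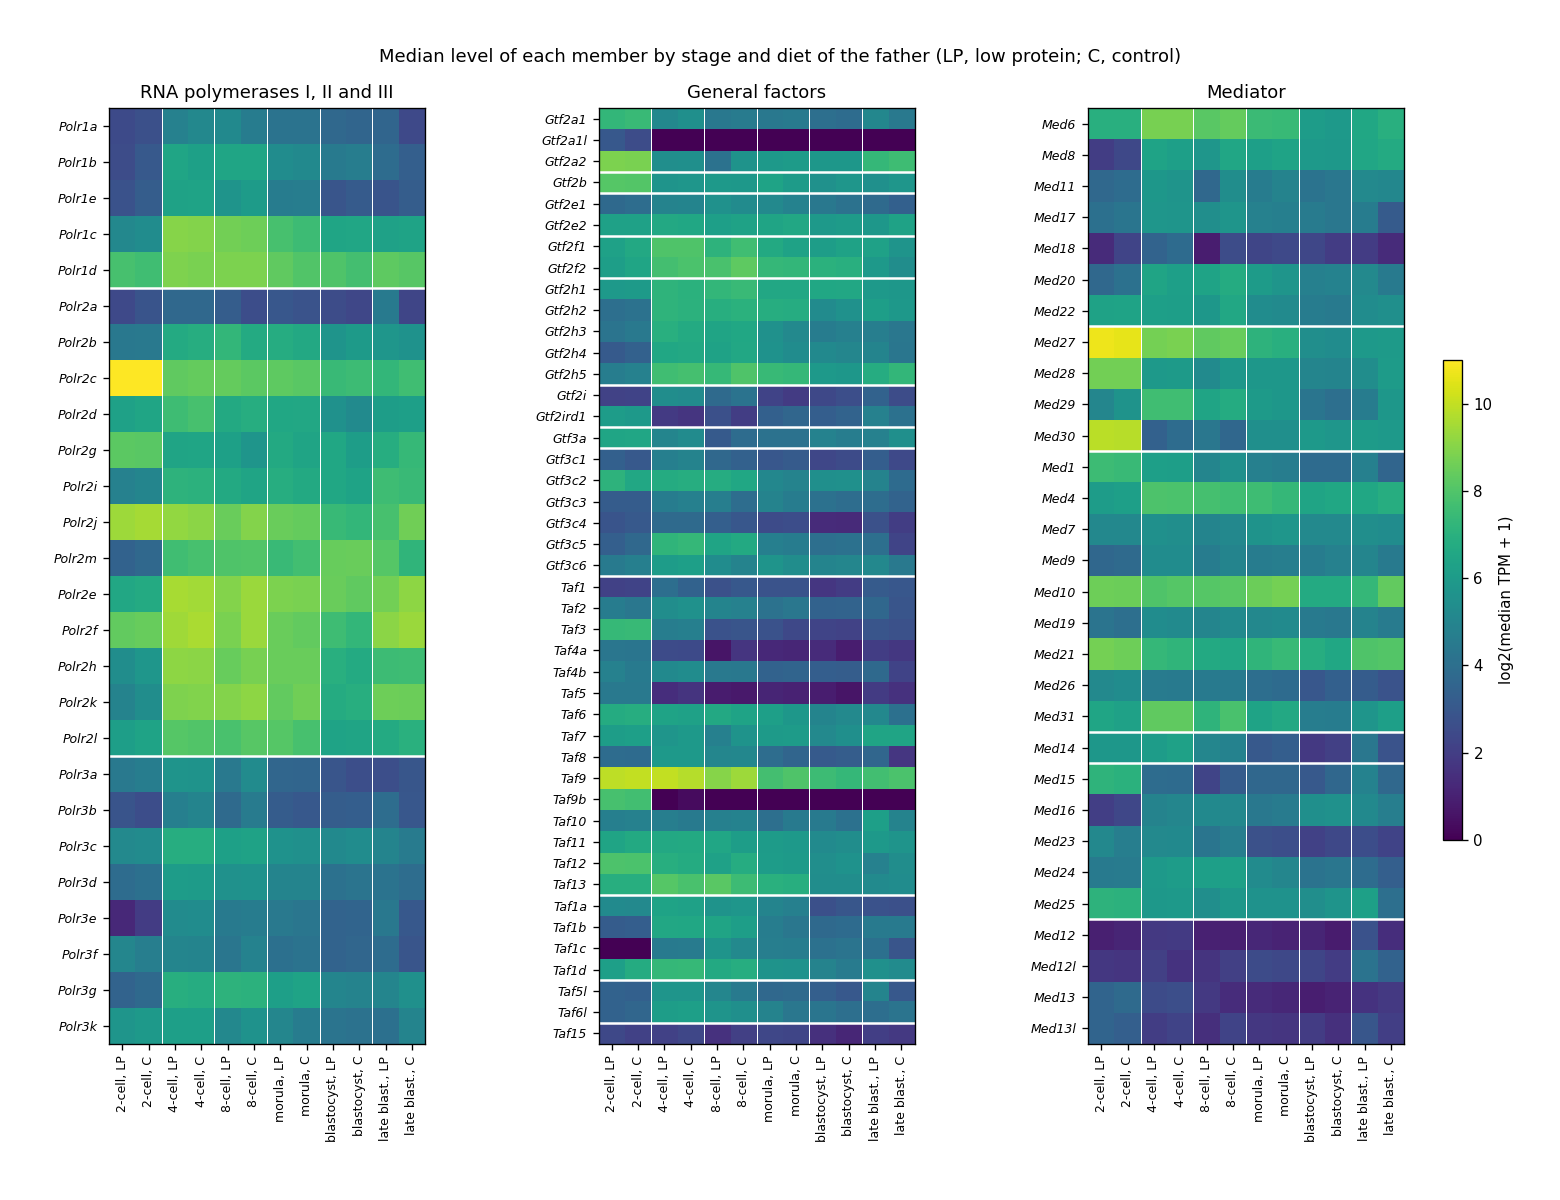
Median level of 100 members as log2(median TPM + 1), in columns by stage and, within a stage, embryos of low protein (LP) and control (C) sires. White lines part the polymerases, the factor complexes and the Mediator modules. Polr2c, Med27 and Med30 are bright in the 2-cell columns, whereas Polr1c, Polr2h and Polr2k are bright from the 4-cell columns on.

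The polymerase I genes together had 292 ± 141, 1185 ± 413, 617 ± 121 and 381 ± 75.7 TPM in low protein embryos with 2 and 4 cells, morulae and blastocysts (mean ± SD, n = 39, 40, 35 and 22), and 336 ± 218, 1150.4 ± 326, 573 ± 191 and 354 ± 84.1 TPM in control embryos (n = 41, 42, 38 and 14). The polymerase III genes had 219 ± 73.9, 601 ± 133, 297 ± 62.2 and 158 ± 29.4 TPM in low protein embryos and 253 ± 132, 609 ± 145, 288 ± 74.1 and 177 ± 32.6 TPM in control embryos. Both sums stood highest at the 4-cell stage. The Mediator genes together had 5103 ± 992, 3157 ± 1042, 2003 ± 523 and 1066 ± 300.4 TPM in low protein embryos and 4992 ± 819, 3172 ± 658, 2051 ± 538 and 962 ± 201 TPM in control embryos. That sum was highest at the 2-cell stage, where Med27 and Med30 had medians of 1673 and 939 TPM in low protein embryos and 1551 and 896 TPM in control embryos. Gene by gene, 15 of 30 Mediator members in low protein and 14 in control embryos were highest at the 4-cell stage. At the 2-cell stage 11 in each diet were highest, 36.7%. Of all genes, 28.2% and 30.2% were highest at the 4-cell stage, and 42.4% and 41.6% at the 2-cell stage. Without the 5 embryos of plate 6, low protein blastocysts had 354 ± 51.4 TPM for polymerase I, 168 ± 22.8 TPM for polymerase III and 925.1 ± 126 TPM for Mediator (n = 17).

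The first step, the 4-cell against the 2-cell stage, moved most members. In low protein embryos 53 of 101 members rose and 21 fell, where 34.5% of all genes rose and 37.6% fell. In control embryos 52 rose and 22 fell, where 34.4% of all genes rose and 36.9% fell. Calls needed a limma adjusted p under 0.05 and a change of at least 1 in either direction in log2(TPM + 1), a scale that understates the change of low genes. The median log2 fold change of the members was 1.16 in low protein and 1.08 in control embryos, beside -0.05 and -0.01 over all genes. The counts include a rise of Taf1c and a fall of Gtf2a1l, which passed the filter on low values only where they were high. The fits of the diets share no embryo, although they share plates and some oocyte donors and so are not fully independent. In both, 51 rises and 21 falls were called. Of the rises, 51 of 53 in low protein embryos held their direction in each of 5 plates and 41 of 52 in control embryos in each of 6 plates. Of the falls, 21 of 21 and 19 of 22 did so. The same embryos made the calls, so this agreement of plates is no separate check. How many calls over all genes held in every plate, or were shared between diets, was not computed.

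**Figure D2:**
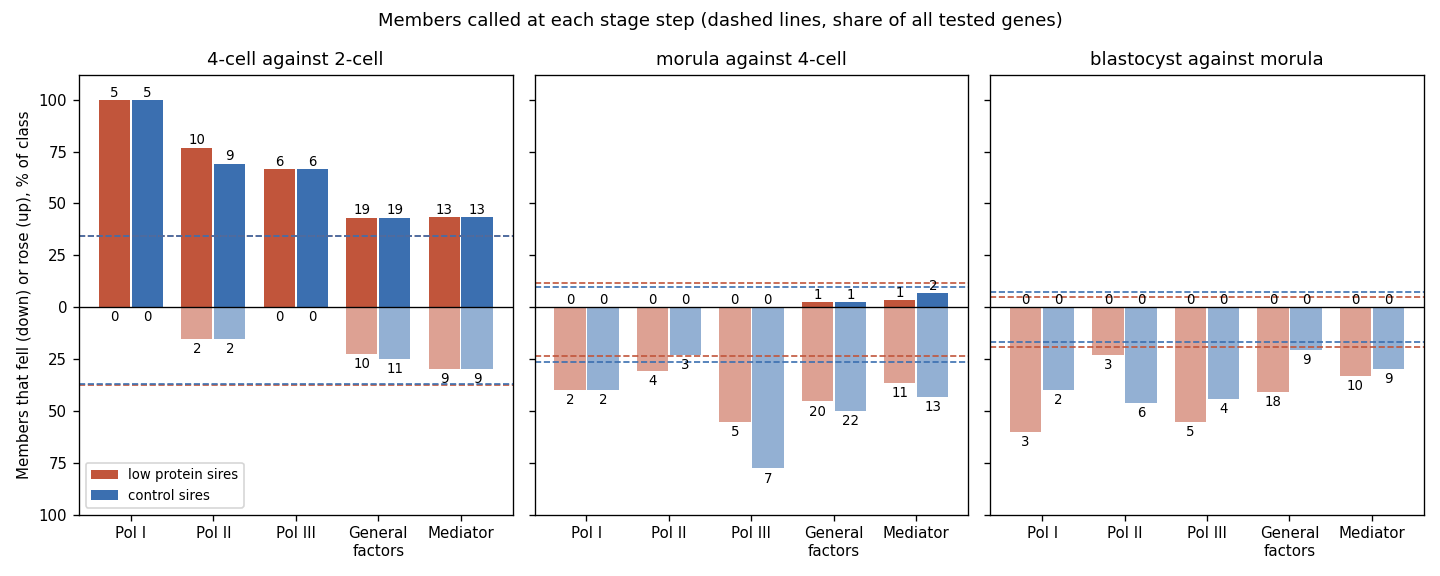
Share of each class that rose (up, dark bars) or fell (down, pale bars) at 3 stage steps, in low protein (red) and control (blue) embryos, with the number of members on each bar. Dashed lines give the share of all tested genes called in that direction. All 5 polymerase I genes rose at the first step and no polymerase subunit rose later.

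The 2-cell level of the rising genes varied by plate. For 32 of the 52 members that rose in control embryos, the highest 2-cell plate median lay on plate 3, a count made after the values were seen. The same count over all genes that rose was not made. Among the 22 members that fell, plate 3 was highest for 3. Its part in the rises was not tested, and leaving out plate 3, like leaving out any other plate, gave between 50 and 53 rises in control embryos and between 52 and 55 in low protein embryos.

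Polymerase I genes all rose. Polr1c, a subunit of the assembly platform that polymerases I and III share, changed most. It measured 137, 513 and 1826 TPM (lowest, median and highest) in low protein 4-cell embryos, against 0, 33.8 and 183 TPM in low protein 2-cell embryos. Control embryos had 179, 497 and 901 TPM at the 4-cell stage, against 0, 40.2 and 526 TPM at the 2-cell stage. Most 4-cell embryos stood above most 2-cell embryos, with overlap at the extremes, and the log2 fold change was 4.30 ± 0.26 in low protein and 3.77 ± 0.25 in control embryos (SE, limma adjusted p = 3.75e-34 and 1.21e-30). Polr1e, a subunit specific to polymerase I, had medians of 81.1 TPM at the 4-cell stage against 5.75 TPM at the 2-cell stage in low protein embryos, and 81.5 against 8.43 TPM in control embryos, with log2 fold changes of 3.53 ± 0.22 in low protein and 3.27 ± 0.26 in control embryos. The catalytic core subunits moved as well: Polr1b changed by 3.31 ± 0.20 in low protein and 2.83 ± 0.22 in control embryos, and the largest subunit Polr1a by 2.00 ± 0.19 in low protein and 1.96 ± 0.16 in control embryos. Adjusted p was at most 1.37e-19 for these 3 genes.

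SL1 places polymerase I on ribosomal DNA. Of its factors Taf1b changed by 3.49 ± 0.23 in low protein and 3.17 ± 0.21 in control embryos. Taf1a rose by 1.11 ± 0.18 (SE, limma adjusted p = 7.63e-09) in control embryos and was just under the size for a call in low protein embryos, at 0.95 ± 0.16 (SE, limma adjusted p = 5.26e-08). Its diet by stage term had a limma adjusted p of 0.458. Taf1d was not called, with medians of 159 TPM at the 4-cell stage against 72.9 TPM at the 2-cell stage in low protein embryos, and 165 against 107 TPM in control embryos. Taf1c was listed at a median of 0 TPM in 2-cell embryos of both diets, with highest values of 10.8 TPM in low protein and 13.7 TPM in control embryos. At the 4-cell stage it had 0, 21.6 and 63.5 TPM in low protein and 3.55, 23 and 52.8 TPM in control embryos. It passed the filter on low values through later stages only, so this is a description.

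Of the 13 polymerase II genes, 10 rose and 2 fell in low protein embryos, and 9 rose and 2 fell in control embryos. All 5 subunits shared by the 3 polymerases rose. Polr2k, the smallest of these, had the largest change of the polymerases. It measured 215, 469 and 3478 TPM in low protein 4-cell embryos, against 0, 29.5 and 150.2 TPM in low protein 2-cell embryos. Control embryos had 215, 478 and 1899.9 TPM at the 4-cell stage, against 4.24, 41.2 and 731 TPM at the 2-cell stage. Low protein 4-cell and 2-cell embryos did not overlap, whereas control embryos did, and the log2 fold change was 4.51 ± 0.22 in low protein and 4.02 ± 0.22 in control embryos (SE, limma adjusted p = 5.70e-43 and 2.44e-37). Polr2h changed by 3.80 ± 0.19 in low protein and 3.79 ± 0.19 in control embryos and Polr2e by 2.94 ± 0.12 in low protein and 2.74 ± 0.12 in control embryos. Polr2e was among the 3 most abundant members at the 4-cell stage, with medians of 753 TPM in low protein and 713 TPM in control embryos.

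Among genes particular to polymerase II, Polr2m, which encodes the polymerase-associated protein Gdown1, changed by 4.07 ± 0.19 in low protein and 3.98 ± 0.19 in control embryos (SE, limma adjusted p = 2.68e-44 and 1.46e-43). Its medians were 196 TPM at the 4-cell stage against 9.93 TPM at the 2-cell stage in low protein embryos, and 219 against 12.2 TPM in control embryos, and it stayed high afterwards, with 347 and 354 TPM in low protein and control blastocysts. Polr2b, the second largest subunit, rose by 1.77 ± 0.21 in low protein and 1.70 ± 0.17 in control embryos. Polr2a, the catalytic subunit, had low levels throughout, with medians of 4.45, 12.3, 6.94 and 4.9 TPM over the 4 main stages in low protein and 6.22, 12, 6.01 and 4.08 TPM in control embryos, and it was called in low protein embryos, at 1.09 ± 0.17 (SE, limma adjusted p = 3.33e-09), and not in control embryos. Its diet by stage term had a limma adjusted p of 0.611.

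Polr2c ran against its neighbors. It encodes a subunit that pairs with Polr2j early in assembly of the enzyme, and it was the most abundant member at the 2-cell stage. It measured 137, 321 and 543 TPM in low protein 4-cell embryos, against 867, 2084 and 3529.6 TPM in low protein 2-cell embryos. Control embryos had 132, 334 and 516 TPM at the 4-cell stage, against 823, 1999 and 3269 TPM at the 2-cell stage. No 4-cell embryo of either diet reached the lowest 2-cell embryo of its own diet, and the log2 fold change was -2.65 ± 0.09 in low protein and -2.55 ± 0.08 in control embryos (SE, limma adjusted p = 4.91e-61 and 5.42e-64). Polr2j itself was not called, with medians of 596 TPM at the 4-cell stage against 664 TPM at the 2-cell stage in low protein embryos, and 546 against 726 TPM in control embryos. Polr2g, which forms the stalk of the enzyme with Polr2d, fell by 1.64 log2 units in low protein and 1.58 in control embryos, while Polr2d rose by 1.54 ± 0.15 in low protein and 1.17 ± 0.16 in control embryos. Polr2c overlaps exons of Dok4 on the other strand.

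Of the 9 polymerase III genes 6 rose in each diet and none fell. Polr3g, one of a pair of alternative subunits and the form known from pluripotent cells, was among the rises. It measured 42.2, 119 and 175 TPM in low protein 4-cell embryos, against 1.46, 10.4 and 38.1 TPM in low protein 2-cell embryos. Control embryos had 32.1, 110.4 and 180.2 TPM at the 4-cell stage, against 1.86, 12.5 and 106 TPM at the 2-cell stage. Low protein embryos of the 4-cell and 2-cell stages did not overlap and control embryos overlapped, with a log2 fold change of 3.31 ± 0.14 in low protein and 2.75 ± 0.16 in control embryos (SE, limma adjusted p = 4.51e-49 and 6.06e-36). Polr3e changed by 3.56 ± 0.20 in low protein and 3.09 ± 0.20 in control embryos and the second largest subunit Polr3b by 1.78 ± 0.16 in low protein and 1.99 ± 0.18 in control embryos. Polr3a, the largest subunit, was not called, with medians of 50.5 TPM at the 4-cell stage against 21 TPM at the 2-cell stage in low protein embryos, and 48.6 against 24.3 TPM in control embryos. Of 6 TFIIIC genes, which recognize transfer RNA genes, 4 rose in each diet, led by Gtf3c5 at 3.69 ± 0.26 in low protein and 3.40 ± 0.31 in control embryos (SE, limma adjusted p = 5.28e-28 and 3.38e-20). Gtf3c5 had the widest spread between 2-cell embryos of all members kept, an SD of 2.02 log2 units in low protein and 2.31 in control embryos. Gtf3a, which encodes TFIIIA, the factor of 5S ribosomal RNA genes, fell by 1.26 and 1.03 log2 units, close to the threshold of size.

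**Figure D3:**
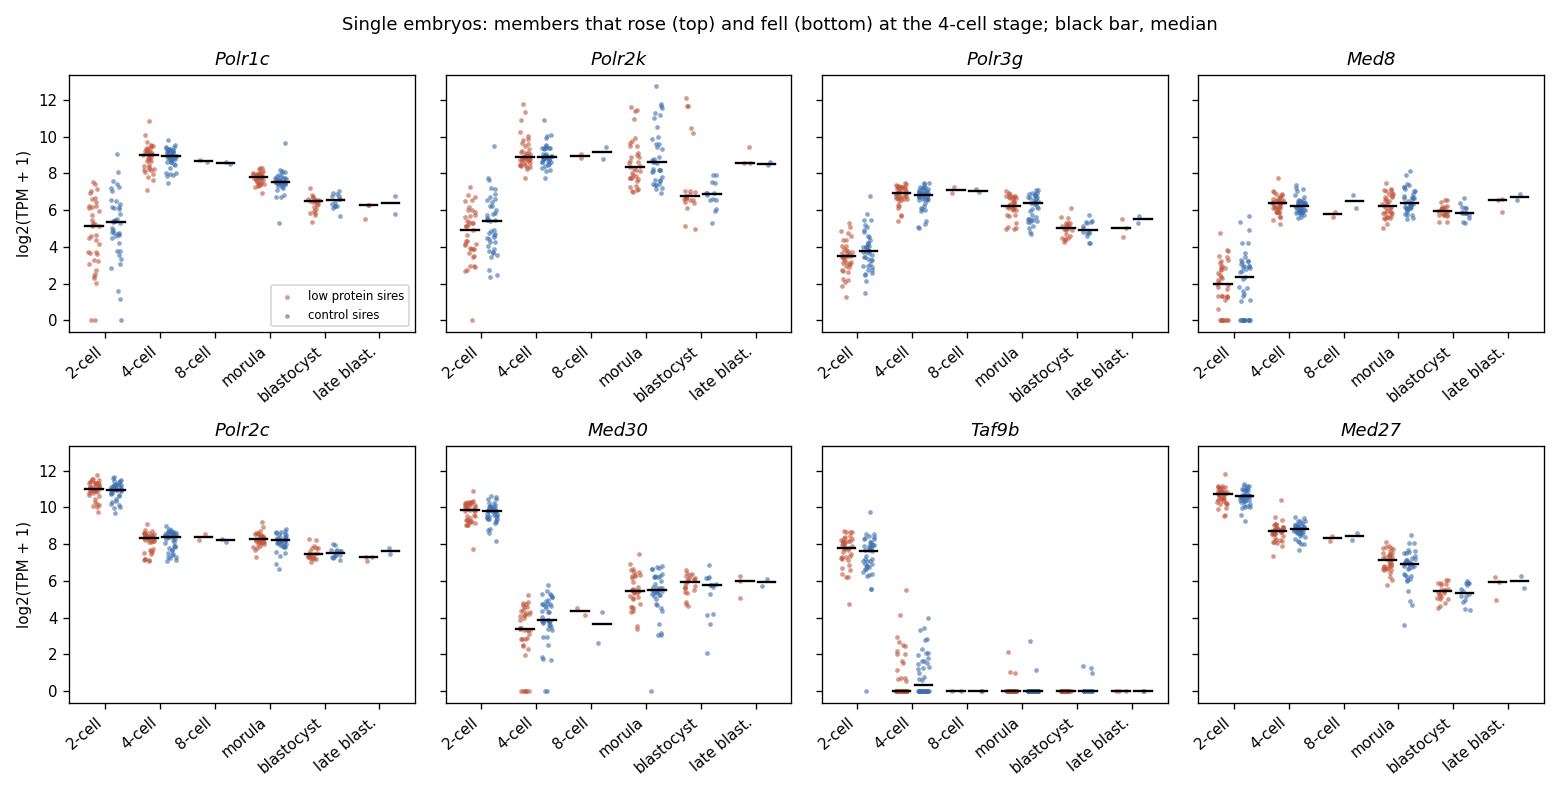
Level of 8 members in single embryos, as log2(TPM + 1), by stage, with low protein embryos (red) left of control embryos (blue) and black bars at the medians. The upper 4 genes rose at the 4-cell stage and the lower 4 fell. Polr2k has a group of high embryos at the morula and low protein blastocyst stages.

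The TFIIA genes Gtf2a1 and Gtf2a2 and the TFIIB gene Gtf2b fell in each diet. Gtf2a2 encodes the small TFIIA subunit. It measured 5.53, 42.4 and 374 TPM in low protein 4-cell embryos, against 186, 449 and 2011 TPM in low protein 2-cell embryos. Control embryos had 0, 44.1 and 153 TPM at the 4-cell stage, against 215, 435 and 2148 TPM at the 2-cell stage. Control embryos of the stages did not overlap, and the log2 fold change was -3.39 ± 0.16 in low protein and -3.26 ± 0.21 in control embryos (SE, limma adjusted p = 1.43e-43 and 6.54e-32). Gtf2a1 changed by -2.30 ± 0.16 in low protein and -2.38 ± 0.14 in control embryos. Gtf2a1l, a TFIIA-like gene of germ cells, was low at the 2-cell stage, with medians of 7.17 and 4.85 TPM in low protein and control embryos, and listed at a median of 0 at every later stage. It passed the filter on low values through the 2-cell stage only, so this is a description. Gtf2b, the single gene of TFIIB, had medians of 50.2 TPM at the 4-cell stage against 270.4 TPM at the 2-cell stage in low protein embryos, and 54.6 against 262 TPM in control embryos and changed by -2.79 ± 0.22 in low protein and -2.09 ± 0.17 in control embryos (SE, limma adjusted p = 1.32e-24 and 5.45e-24).

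TFIIF escorts the polymerase to the promoter, and TFIIH opens the DNA. Gtf2f1 and Gtf2f2 were both called in each diet. All 5 TFIIH core genes rose in low protein embryos and 4 of 5 in control embryos. Gtf2h4, a core subunit, had medians of 94.1 TPM at the 4-cell stage against 7.7 TPM at the 2-cell stage in low protein embryos, and 97.3 against 9.72 TPM in control embryos, with a log2 fold change of 3.05 ± 0.27 in low protein and 3.41 ± 0.21 in control embryos (SE, limma adjusted p = 2.25e-20 and 9.59e-34). Gtf2h2 changed by 3.23 ± 0.19 in low protein and 3.04 ± 0.22 in control embryos, and in control embryos the stages did not overlap. The TFIIE genes Gtf2e1 and Gtf2e2 were not called at any step in either diet.

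Of 15 TFIID genes, 3 rose and 4 fell in low protein embryos, and 3 rose and 5 fell in control embryos, shares below those of all genes. Taf9b, a close relative of Taf9, had the largest fall of all members. It measured 0, 0 and 44.8 TPM in low protein 4-cell embryos, against 25.4, 224 and 425 TPM in low protein 2-cell embryos. Control embryos had 0, 0.26 and 14.8 TPM at the 4-cell stage, against 0, 201 and 858 TPM at the 2-cell stage. Nearly all 4-cell embryos lay below nearly all 2-cell embryos, with a log2 fold change of -6.91 ± 0.18 in low protein and -6.45 ± 0.23 in control embryos (SE, limma adjusted p = 6.64e-71 and 7.48e-56). Its relative Taf9 was not called, with medians of 1015 TPM at the 4-cell stage against 946 TPM at the 2-cell stage in low protein embryos, and 867 against 1002 TPM in control embryos, and then fell at the morula stage. Taf3, which reads a histone mark of active promoters, changed by -2.65 ± 0.13 in low protein and -2.65 ± 0.13 in control embryos and Taf5, a scaffold subunit, by -2.80 ± 0.19 in low protein and -2.71 ± 0.18 in control embryos. Taf1, the largest subunit, rose by 1.27 ± 0.19 in low protein and 1.02 ± 0.19 in control embryos.

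Some related genes parted at this step, and the pairs given here were picked from a longer list. Other pairs kept their order: Taf9b lay below Taf9, and Gtf2a1l below Gtf2a1, in every embryo of both stages. Within embryos, Gtf2ird1 exceeded Gtf2i, the founding gene of the TFII-I family, in 0 of 40 low protein and 0 of 42 control 4-cell embryos, against 39 of 39 and 41 of 41 embryos with 2 cells. Gtf2ird1 changed by -4.37 ± 0.22 in low protein and -4.35 ± 0.19 in control embryos (SE, limma adjusted p = 1.42e-41 and 2.72e-47) and Gtf2i by 2.63 ± 0.22 in low protein and 2.64 ± 0.22 in control embryos. Taf5l, the counterpart of Taf5 in the SAGA coactivator, exceeded Taf5 in 40 of 40 and 42 of 42 embryos with 4 cells, against 9 of 39 and 12 of 41 with 2 cells. Taf4b, a TFIID subunit best known from mouse gonads, exceeded Taf4a in 39 of 40 and 41 of 42 embryos with 4 cells, against 28 of 39 and 25 of 41 with 2 cells. Taf4a changed by -1.84 ± 0.17 in low protein and -1.87 ± 0.18 in control embryos and Taf4b was not called. The pairs were compared as levels per length, with no test.

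**Figure D4:**
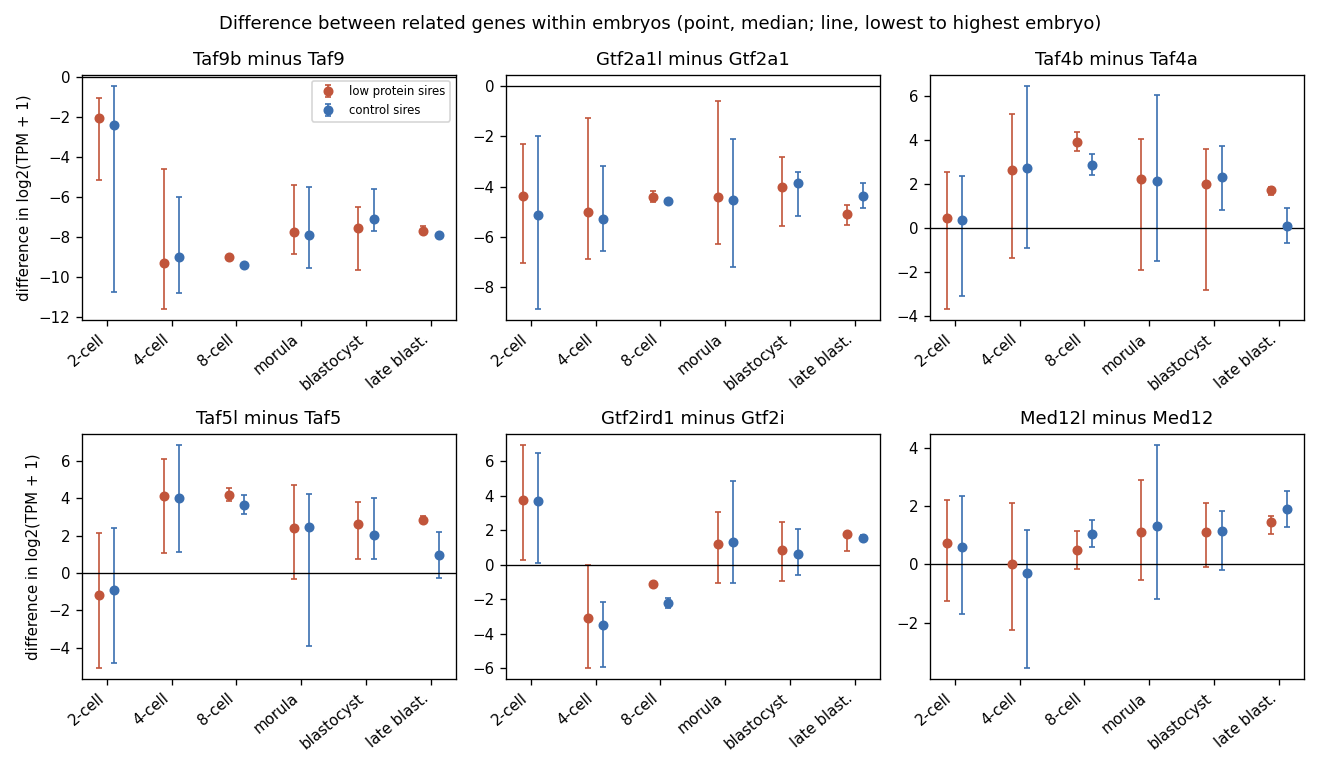
Difference in log2(TPM + 1) between 2 related genes of the same embryo, by stage, in low protein (red, left) and control (blue, right) embryos, with points at the median and lines to the lowest and highest embryo. Gtf2ird1 minus Gtf2i is 0 or below in 4-cell embryos and above 0 in all 2-cell embryos, and Taf5l minus Taf5 is above 0 in every 4-cell embryo.

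Of the 30 Mediator genes 13 rose and 9 fell in each diet, 43.3% and 30%. Of all genes, 34.5% rose and 37.6% fell in low protein embryos, and 34.4% rose and 36.9% fell in control embryos. The median log2 fold change of the Mediator genes was 0.42 in low protein and 0.41 in control embryos. By module, 6 of 7 head genes rose and none fell in each diet, 4 of 9 middle genes rose and 2 fell, 2 of 5 tail genes rose and 2 fell, and none of 4 kinase module genes rose and 2 fell. Differences between modules were not tested. Med8, a head subunit, had the largest rise of all members. It measured 37.2, 83 and 213 TPM in low protein 4-cell embryos, against 0, 2.95 and 26.2 TPM in low protein 2-cell embryos. Control embryos had 46.6, 73.1 and 166 TPM at the 4-cell stage, against 0, 4.24 and 51 TPM at the 2-cell stage. Low protein embryos of the stages did not overlap and control embryos did, with a log2 fold change of 4.55 ± 0.19 in low protein and 4.39 ± 0.22 in control embryos (SE, limma adjusted p = 3.81e-50 and 2.05e-40). Med20, a further head subunit, changed by 2.49 ± 0.23 in low protein and 2.43 ± 0.22 in control embryos. Of the 4 genes Med27 to Med30, which are found in animal Mediator, 3 fell and Med29 rose.

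Med30 showed the largest Mediator fall. It measured 0, 9.58 and 36.1 TPM in low protein 4-cell embryos, against 209, 939 and 1897 TPM in low protein 2-cell embryos. Control embryos had 0, 13.7 and 53.3 TPM at the 4-cell stage, against 292, 896 and 1579 TPM at the 2-cell stage. The highest 4-cell embryo lay below the lowest 2-cell embryo in each diet, and the log2 fold change was -6.54 ± 0.22 in low protein and -5.81 ± 0.24 in control embryos (SE, limma adjusted p = 3.45e-59 and 4.77e-49). Med28 changed by -2.55 ± 0.10 in low protein and -2.49 ± 0.09 in control embryos, again without overlap in either diet. Without overlap between the stages there were 9 members in low protein and 7 in control embryos, where 9.57% and 9.07% of all genes showed none. At the later steps 0 members did so, beside 0.344% and 0.507% of all genes from the 4-cell stage to the morula and 0.244% and 0.706% from there to the blastocyst. Polr2c, Gtf2ird1, Med28 and Med30 were on both lists. In the tail, which contacts many activators, Med15 changed by -3.64 ± 0.15 in low protein and -3.34 ± 0.16 in control embryos and Med16 by 2.66 ± 0.18 in low protein and 2.70 ± 0.17 in control embryos. The middle subunit Med1, which binds nuclear receptors, fell by 1.32 and 1.54 log2 units. Med14, the scaffold that joins the modules, was not called. In the kinase module, Med13 changed by -1.20 ± 0.15 in low protein and -1.30 ± 0.15 in control embryos, and Med12 stayed low, with medians of 0.93, 2.6, 1.34 and 1.22 TPM over the main stages in low protein and 1.19, 2.6, 1.17 and 0.8 TPM in control embryos.

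The promoters of the members were read from the RefSeq tables of build GRCm38.p6, over the 250 bases before each gene's start, for the 86 of 101 members with an entry. The letters CCGGAA, the core bound by ETS family factors, were searched on both strands with 5 other motifs. They were present in 20 of 46 members that rose in control embryos (43.5%), in 4 of 19 that fell (21.1%), in 5 of 21 not called (23.8%), in 23.4% of the genes of the table and in 12.3% of all 27025 promoters. The NRF1 motif (GCGCA and GCGC parted by 1 base) was in 17.4% of risers and 10.5% of fallers, against 8.83% of the genes of the table. TATAAA was in 8.7% and 21.1% against 6.47%, CCAAT in 32.6% and 36.8% against 38%, CACGTG in 15.2% and 15.8% against 8.56%, and AAGATGG in 6.52% and 5.26% against 4.34%. These shares carry no test, overlap between motifs was not examined, and a match is not a bound site.

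To show where the letters lie, stretches of up to 60 bases follow for the 6 polymerase subunits that hold CCGGAA among the 16 that rose and have a window. They were picked because they hold it, after the matches were known. Chosen by size of change alone, the 3 largest rises and 3 largest falls with a window, 1 of 6 held it, in Polr1c. The capitals mark CCGGAA, or TTCCGG where it lies on the opposite strand. All are printed on the gene's strand, from 5′ to 3′.
Polr1c (chr17:46248055-46248114, minus strand): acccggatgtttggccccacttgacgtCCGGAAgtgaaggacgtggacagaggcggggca
Polr2e (chr10:80039770-80039829, minus strand): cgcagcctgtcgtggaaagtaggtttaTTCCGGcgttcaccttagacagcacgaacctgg
Polr2f (chr15:79141281-79141324, plus strand): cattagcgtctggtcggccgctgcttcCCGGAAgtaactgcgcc
Polr3b (chr10:84622261-84622297, plus strand): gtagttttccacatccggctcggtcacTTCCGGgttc
Polr3c (chr3:96727483-96727542, minus strand): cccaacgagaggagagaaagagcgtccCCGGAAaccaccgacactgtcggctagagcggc
Polr3g (chr13:81711014-81711068, minus strand): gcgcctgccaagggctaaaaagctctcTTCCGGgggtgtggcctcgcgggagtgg
The letters lay 36 bases before the RefSeq start in Polr1c, 11 in Polr2f, 4 in Polr3b, 22 in Polr3g, 70 in Polr3c and 137 in Polr2e. These distances hold for that start only. In the GENCODE annotation used for gene positions, the stretches of Polr2f and Polr3c lie inside the gene. Those of Polr2e and Polr3b span its start there. For contrast, the 250 bases before the start of Taf9b, the largest fall, hold no such letters.
Taf9b (chrX:106221159-106221408, minus strand): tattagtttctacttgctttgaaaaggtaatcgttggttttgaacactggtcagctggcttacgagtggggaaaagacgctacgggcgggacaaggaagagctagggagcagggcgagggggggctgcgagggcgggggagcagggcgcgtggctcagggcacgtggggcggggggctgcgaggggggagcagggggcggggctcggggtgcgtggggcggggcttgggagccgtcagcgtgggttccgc

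At the morula stage, against the 4-cell stage, far more members fell than rose. In low protein morulae 42 of 101 members fell and 2 rose, where 23.7% of all genes fell and 11.5% rose. In control morulae 47 fell and 3 rose, where 26.4% fell and 9.93% rose. The median of the members was -0.78 in low protein and -0.95 in control embryos on the log2 scale, beside -0.25 and -0.33 over all genes. Taken relative to the median of all genes, 30 and 32 members fell, beside 17.7% and 17.9% of all genes. Quantile normalization, which gives all embryos the same distribution, left 25 falls in low protein and 29 in control embryos, beside 16% and 15.8% of all genes. Between the diets 39 falls were shared, and the overlap over all genes was not computed.

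Med14, not called at the step before, was among the largest falls. It measured 0.26, 7.43 and 47.1 TPM in low protein morula embryos, against 7.12, 67.1 and 276 TPM in low protein 4-cell embryos. Control embryos had 0.29, 8.73 and 46.1 TPM at the morula stage, against 5.63, 77.5 and 236 TPM at the 4-cell stage. Most morulae lay below most 4-cell embryos, though the groups overlapped, with a log2 fold change of -2.90 ± 0.21 in low protein and -2.44 ± 0.20 in control embryos (SE, limma adjusted p = 3.20e-25 and 3.47e-22). Med23, a tail subunit, changed by -2.49 ± 0.20 in low protein and -2.49 ± 0.18 in control embryos, and Med31, a middle subunit, by -2.39 ± 0.19 in low protein and -2.22 ± 0.18 in control embryos. Gtf2i, which had risen in the step before, changed by -2.67 ± 0.24 in low protein and -3.24 ± 0.23 in control embryos (SE, limma adjusted p = 6.26e-20 and 7.78e-27), and Gtf3c5 by -2.48 ± 0.28 in low protein and -2.83 ± 0.33 in control embryos. Taf9, at the top of all members in 4-cell embryos, had 86.6, 211 and 456 TPM in low protein morulae, against 219.9, 1015 and 3095 TPM in low protein 4-cell embryos, and changed by -2.40 ± 0.12 in low protein and -2.13 ± 0.10 in control embryos. Reads of Taf9 and Ak6 may be mixed.

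Of 15 TFIID genes 8 fell in each diet, with Taf3 at -1.87 ± 0.13 in low protein and -2.48 ± 0.14 in control embryos and Taf4b at -1.58 ± 0.23 in low protein and -1.54 ± 0.20 in control embryos. Polymerase III genes fell in 5 of 9 cases in low protein and 7 of 9 in control embryos. Polr3a changed by -1.91 ± 0.13 in low protein and -2.09 ± 0.17 in control embryos (SE, limma adjusted p = 5.30e-27 and 7.47e-23) and Polr3b by -1.43 ± 0.17 in low protein and -1.62 ± 0.19 in control embryos. In polymerase I, Polr1e fell by 1.93 and 2.16 log2 units and Polr1c by 1.16 and 1.36. In polymerase II 4 of 13 genes fell in low protein and 3 of 13 in control embryos, 30.8% and 23.1%. These shares lie near the 23.7% and 26.4% of all genes that fell. The polymerase II falls included Polr2f at -1.27 ± 0.13 in low protein and -1.34 ± 0.14 in control embryos. Polr2d changed by -1.27 ± 0.16 in low protein and -1.32 ± 0.17 in control embryos.

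The rises of this step were Gtf2ird1 and Med30 in both diets and Med12l in control embryos. Both shared genes had fallen in the step before. Med30 had 9.55, 43.2 and 176 TPM in low protein morulae, against 0, 9.58 and 36.1 TPM in low protein 4-cell embryos, and 0, 43.9 and 111.5 TPM in control morulae, against 0, 13.7 and 53.3 TPM in control 4-cell embryos. The stages overlapped, and the log2 fold change was 2.04 ± 0.24 in low protein and 1.18 ± 0.26 in control embryos (SE, limma adjusted p = 1.35e-13 and 2.72e-05). Gtf2ird1 changed by 1.59 ± 0.23 in low protein and 1.74 ± 0.20 in control embryos (SE, limma adjusted p = 1.17e-09 and 1.01e-13). Each was higher in 5 of 5 plates of low protein and 5 of 6 plates of control embryos.

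From the morula to the blastocyst stage no member rose. In low protein blastocysts 39 of 101 members fell, where 19.1% of all genes fell and 5% rose. In control blastocysts 30 fell, where 16.9% fell and 7.42% rose. Member medians were -0.74 and -0.70, beside -0.33 and -0.24 over all genes. Relative to the median of all genes 24 and 19 members fell, beside 10.4% and 11.6% of all genes, and after quantile normalization 21 and 16, beside 9.22% and 11.1%. Of the falls 22 were shared between diets, and here too the overlap over all genes was not computed. Plate 2 held 11 of the 14 control blastocysts, and without it 14 members fell in control embryos in place of 30, while 7.79% of all genes fell and the member median was -0.84. Without plate 6, whose blastocysts went against their label, 37 members fell in low protein embryos, 30 of them among the 39, and 19.8% of all genes fell. Of those 37 falls, 26 were shared with control embryos. Gtf2b, Taf4b, Taf7, Taf1b and Polr1b were among the falls no longer called, and Polr2d, Polr2j and Polr2k among those gained.

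Taf13, which pairs with Taf11 in TFIID, fell at each step after the 4-cell stage. It measured 19.5, 40.4 and 66 TPM in low protein blastocyst embryos, against 58.3, 124 and 364 TPM in low protein morula embryos. Control embryos had 20.6, 41.4 and 118 TPM at the blastocyst stage, against 4.26, 119 and 606 TPM at the morula stage. Blastocysts lay mostly below morulae, and the log2 fold change was -1.90 ± 0.20 in low protein and -1.99 ± 0.27 in control embryos (SE, limma adjusted p = 2.90e-14 and 1.24e-09). Taf1a of SL1 changed by -1.97 ± 0.22 in low protein and -1.96 ± 0.29 in control embryos. Med29, which had risen at the 4-cell stage, changed by -2.04 ± 0.33 in low protein and -2.38 ± 0.36 in control embryos (SE, limma adjusted p = 1.53e-07 and 3.15e-08), and Med10, a middle subunit, by -1.61 ± 0.19 in low protein and -2.29 ± 0.22 in control embryos. Polr1e fell again, by 2.30 log2 units in low protein and 1.95 in control embryos, and Polr3g by 1.54 and 1.81. Med27 fell at all 3 steps in both diets, with medians of 1673, 419.9, 138 and 42 TPM in low protein and 1551, 447, 122 and 40 TPM in control embryos. Med1 fell at all 3 in low protein embryos. Without plate 6 each of these low protein falls was still called, at -2.21 for Taf13, -2.67 for Taf1a, -2.51 for Med29, -2.01 for Med10, -2.52 for Polr1e, -1.85 for Polr3g, -1.39 for Med27 and -1.04 for Med1 on the log2 scale.

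Polr2k differed by plate in these later stages. Its morula medians were 942, 549.7 and 2061 TPM on plates 4, 6 and 7, against 203, 279 and 251 TPM on plates 1, 2 and 3. Among blastocysts, the 5 embryos of plate 6, all of low protein sires, had 1176, 3221 and 4317 TPM (lowest, median and highest), against medians of 99.7 and 111 TPM on plates 2 and 3. The step was called in control embryos, at -1.59 ± 0.36 (SE, limma adjusted p = 2.33e-04), and not in low protein embryos, where the difference was -0.57 ± 0.30 (limma adjusted p = 0.117). Without plate 6 it was called there as well, at -1.50 ± 0.32 (limma adjusted p = 6.02e-05). Its diet by stage term had a limma adjusted p of 0.839.

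Stages with few embryos are given as values only. At the 8-cell stage Polr1c had 419.6 and 392 TPM in the 2 low protein embryos and 361 and 389 TPM in the 2 control embryos, and Med30 21.9 and 16.7 TPM and 18.5 and 5.19 TPM. Taf9b was listed at 0 in all 4. Those values lie within the range of 4-cell embryos. In late blastocysts Polr1c had 77.3, 45 and 76.8 TPM in low protein and 109.8 and 54.1 TPM in control embryos, Gtf2a2 158, 106 and 251 TPM and 222 and 163 TPM, and Polr2a 24.7, 22.1 and 17.4 TPM and 3.77 and 3.96 TPM. Gtf2a2 was higher in all 5 late blastocysts than in any blastocyst of the same diet, and Polr2a was higher in the 3 low protein than in the 2 control embryos. Each late blastocyst group came from 1 sire and 1 plate.

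By the diet of the father, no member was called at any stage. At limma adjusted p under 0.05, 0 of 100 members differed in 2-cell embryos, 0 of 100 in 4-cell embryos, 0 of 99 in morulae and 0 of 99 in blastocysts, where 0% of all genes were called at each. At an unadjusted p under 0.05 the members numbered 10, 4, 12 and 5, beside 6.95%, 5.2%, 10.4% and 3.43% of all genes. The smallest adjusted p of a member was 0.599, 0.901, 0.320 and 1.00 at the 4 stages. The 95% interval of the difference lay within 1 log2 unit either way for 92, 98, 97 and 94 members, and reached beyond it for the others. In blastocysts the difference rested on plates 2 and 3, since plate was a covariate and plate 6 held low protein blastocysts alone. Leaving out plate 6 could therefore not change the difference and is no check of it. Without that plate, 0 members were called and 5 had an unadjusted limma p under 0.05. P-values treat embryos of 1 sire as independent, although the diet was given to sires.

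**Figure D5:**
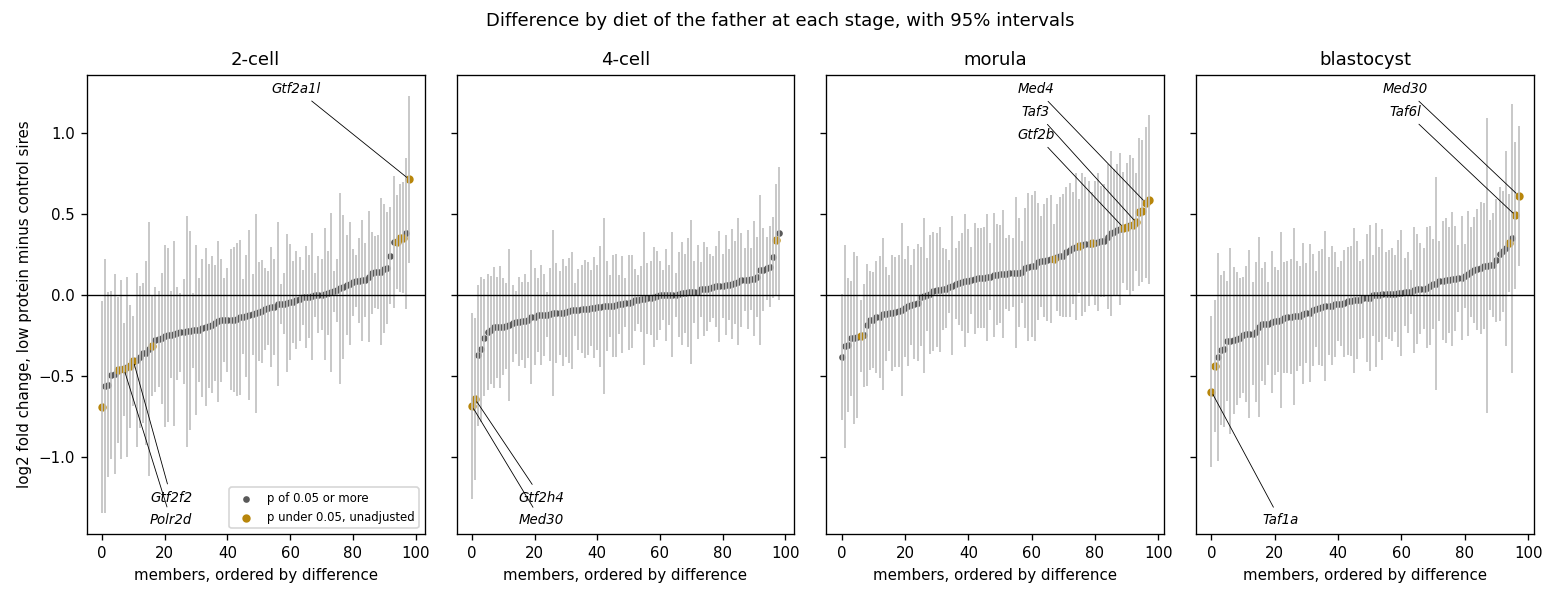
Log2 fold change of single members in low protein against control embryos at 4 stages, ordered by size, with 95% intervals and up to 3 members of smallest p named. Gold points had an unadjusted p under 0.05. No point was called after adjustment.

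At the 2-cell stage the smallest p belonged to Polr2d, a stalk subunit of polymerase II, which had 25.8, 76.5 and 193 TPM in low protein embryos, against 31, 86.3 and 323 TPM in control embryos. The groups overlapped over most of their range, and the difference was -0.46 (95% interval -0.74 to -0.17, limma p = 0.00208 and adjusted p = 0.599), lower in 6 of 6 plates. Gtf2a1l had 0, 7.17 and 28.1 TPM in low protein embryos, against 0, 4.85 and 39.6 TPM in control embryos, with a difference of 0.72 (95% interval 0.20 to 1.23, limma p = 0.00727 and adjusted p = 0.706), higher in 6 of 6 plates. Gtf2f2 of TFIIF had a difference of -0.41 (95% interval -0.68 to -0.13, limma p = 0.00478 and adjusted p = 0.706). None passed the adjustment.

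At the 4-cell stage Med30 had 0, 9.58 and 36.1 TPM in low protein embryos, against 0, 13.7 and 53.3 TPM in control embryos. The difference was -0.68 (95% interval -1.25 to -0.11, limma p = 0.02 and adjusted p = 0.901), lower in 7 of 7 plates. In blastocysts Med30 had 23.6, 61.3 and 96.4 TPM in low protein embryos, against 3.22, 54 and 115 TPM in control embryos, with a difference of 0.62 (95% interval 0.18 to 1.05, limma p = 0.00647 and adjusted p = 1), the opposite sign, and its diet by stage term had a limma adjusted p of 0.233. Without the 5 embryos of plate 6, Med30 had 23.6, 64.8 and 96.4 TPM in low protein blastocysts. Gtf2h4 at the 4-cell stage differed by -0.64 (95% interval -1.14 to -0.14, limma p = 0.0128 and adjusted p = 0.901). In blastocysts Taf1a differed by -0.59 (95% interval -1.06 to -0.13, limma p = 0.0138 and adjusted p = 1) and Taf6l, a SAGA subunit, by 0.49 (95% interval 0.04 to 0.95, limma p = 0.0339 and adjusted p = 1). Without plate as a covariate the Taf6l difference was -0.08.

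In morulae 11 of the 12 members at an unadjusted p under 0.05 were higher in low protein embryos, and the median over all genes was itself shifted by 0.12 log2 units that way. Without plate 6 only 3 members had an unadjusted p under 0.05, 1 higher and 2 lower, and the median over all genes was shifted by 0.04. After quantile normalization there were 14, 8 higher and 6 lower. Taf3 had 1.52, 5.78 and 13.6 TPM in low protein embryos, against 0, 4.16 and 8.94 TPM in control embryos, and the difference was 0.45 (95% interval 0.15 to 0.75, limma p = 0.00397 and adjusted p = 0.32). Med4, a middle subunit, had 116, 190.4 and 305 TPM in low protein embryos, against 0, 159 and 237 TPM in control embryos, with a difference of 0.57 (95% interval 0.11 to 1.04, limma p = 0.0165 and adjusted p = 0.399), higher in 6 of 6 plates. Gtf2b differed by 0.42 (95% interval 0.07 to 0.76, limma p = 0.0176 and adjusted p = 0.405). Without plate 6 the differences were 0.38 for Taf3, 0.50 for Med4 and 0.00 for Gtf2b, with limma adjusted p of 0.838, 0.898 and 1.00. No member had a diet by stage term past the adjustment (limma F test, smallest adjusted p 0.212), where 0.127% of all genes did, and 17 members had an unadjusted p under 0.05, beside 9.25% of all genes.

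Of 72 further genes of the machinery in the table, 38 rose and 11 fell at the 4-cell stage in low protein embryos (52.8% and 15.3%). In control embryos 36 rose and 11 fell (50% and 15.3%). Of all genes, 34.5% rose and 37.6% fell in low protein embryos, and 34.4% rose and 36.9% fell in control embryos. All 4 polymerase I and III subunits that carry other names rose in each diet, led by Crcp at 4.03 ± 0.20 in low protein and 3.78 ± 0.24 in control embryos (SE, limma adjusted p = 1.50e-41 and 2.08e-32). Of the TBP family, whose founder Tbp anchors TFIID, none rose and Tbpl1 and Tbpl2 fell. Tbpl2, the oocyte form in mouse, had 2-cell medians of 22.5 TPM in low protein and 11.8 TPM in control embryos. It was listed at a median of 0 in all later stages. Its 2-cell values may be what carried it past the filter on low values, so its fall is a description. Of 5 TFIIH enzyme and kinase genes 4 rose, with the helicase Ercc2 at 2.61 ± 0.24 in low protein and 2.84 ± 0.23 in control embryos, and Cdk7 was not called. Gpn3, an assembly factor of polymerase II, changed most, by 5.75 ± 0.31 in low protein and 5.35 ± 0.29 in control embryos (SE, limma adjusted p = 1.86e-37 and 2.77e-38).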

How the data were processed

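The authors deposited 1 table of TPM per gene and embryo, made from single-embryo libraries. Alignment used Bowtie to mm10, per the submitters' processing notes, and no version or counting rule is given in the sources used here. Values were taken as deposited, as log2(TPM + 1), and genes were kept that reached a TPM of 1 in 25% or more of any fitted stage's embryos. Limma 3.58.1 in R 4.3.3, with trended and robust variance and plate as a covariate, was fitted over all kept genes, per diet for stage steps and per stage for diet, with Benjamini-Hochberg adjustment. All 101 members passed for the steps. Taf1c did not pass at the 2-cell stage, Gtf2a1l at the 4-cell stage, and Gtf2a1l and Taf9b at the morula and blastocyst stages, for diet. Tested on simulated data, the control 4-cell against 2-cell fit recovered 46.3% of 67 genes changed by 1 log2 unit and 100% of 66 changed by 2. A change of 1 lies at the size limit for a call. The diet fits recovered 38.8%, 34.3%, 31.3% and 23.9% of genes changed by 0.5 log2 units at the 2-cell, 4-cell, morula and blastocyst stages. For a change of 1 they recovered 82.1%, 94%, 86.6% and 79.1%. The simulated data kept no plate or sire differences. Gene positions come from the GENCODE annotation.

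The members and gene lists were chosen with earlier results of these data known. By rule the text names, per step and class, the 3 largest rises and 3 largest falls called in control embryos whose mean reached 10 TPM in either stage, a fixed list of core members, and the 3 smallest p per stage for diet. The members Polr1d, Polr2e, Polr2j, Polr3c, Gtf2a1, Gtf2e1, Gtf2e2, Gtf2f1, Gtf2h2, Taf1b, Taf4a, Taf5, Taf5l, Taf11, Taf15, Med12l and Med27 fall outside it and were chosen after their values were seen, as were the promoter stretches. Polr3gl, Gtf2ird2 and Taf7l were not analysed here, and Twistnb, Cd3eap and Znrd1, the table's names for Polr1f, Polr1g and Polr1h, were counted with the further genes of the machinery. The values of 1 member are not reported here, although counts include it. Alternatives tried were another pseudocount, no filter, quantile normalization, rescaling without Rn45s, no plate covariate, and leaving out embryos under 5000 genes. Further ones were each plate left out, sire as a correlated block, and an assumed sire pair in place of plate.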

Additional observations from a re-analysis of the deposited data

How the results depend on the processing

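Over all alternatives, 228 counts of members stayed within 1.5 times the value reported and 10 did not. Quantile normalization left 25 falls in low protein and 29 in control embryos at the morula stage, and 21 and 16 at the blastocyst stage, where it gave 1 rise in control embryos. With no plate covariate 1 member rose at the blastocyst stage in each diet, and likewise 1 in low protein embryos without plate 2 and 1 in control embryos without plate 3. Without plate 2, 14 members fell in control blastocysts, of which that plate held 11 of 14. With each plate left out, the rises at the 4-cell stage ranged from 52 to 55 in low protein and 50 to 53 in control embryos, and the falls at the morula stage from 34 to 44 and 43 to 49. Among the values of named members 2234 kept direction and side of the threshold, 90 kept direction only and 1 reversed, the diet difference of Taf6l in blastocysts, at -0.078 with no plate covariate. With sire as a correlated block, 31 genes and 0 members differed by diet in blastocysts. Only 3 low protein and 2 control sires were used there, and the estimated correlation within sires was negative, at -0.044. The stem of the sire identifier, assumed and not stated to mark a pair of males, was also used. The most common stem covered 38.6% of embryos. With the stem in place of plate, 0 members differed by diet at any of the 4 stages. At an unadjusted limma p under 0.05 there were 8, 4, 16 and 5. Embryo numbers pair no embryos. The causes were not tested, and without counts the precision of low values is unknown.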

Other observations

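Genes that act after initiation moved in both directions at the 4-cell stage. Of 24 pausing and elongation genes, 10 rose and 3 fell in each diet, where 34.5% of all genes rose and 37.6% fell in low protein embryos. Leo1, a subunit of the PAF1 complex, had a log2 fold change of 3.62 in low protein and 3.46 in control embryos, and Tcea3, a relative of the elongation factor TFIIS, -3.50 and -3.15 (limma, adjusted p under 0.05 in each). Of 12 SAGA coactivator genes, 5 rose and 3 fell in each diet. Eny2, a subunit of its deubiquitinating module, changed by -2.58 in low protein and -2.50 in control embryos, and Tada3, an adaptor subunit, by -2.36 and -2.34. These 4 genes were picked after their values were seen.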
